A study of Mus musculus with 9 samples.

Results

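Mouse chromosome 18 was examined in 3 osteosarcoma cell lines that differ in their p53 alleles, as the set of its open chromatin regions. The peak lists of all 9 libraries were merged wherever peaks overlapped by 1 bp or more, and the 3958 merged regions on chromosome 18, of 124230 in all, were taken. The chromosome had been picked because the R245W line has fewer calls there than the other lines, so every value that sets R245W against them is a description and carries no test. For scale, chromosomes 8 and 19 held 6757 and 3883 regions.

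The assay was ATAC-seq, in which the transposase Tn5 inserts adapters into accessible DNA, and each library is represented by a list of peaks. The lines came from primary murine osteosarcomas and carry p53R245W/- (called the R245W line here), p53R172H/- (the R172H line) or p53-/- (the null line), so that none of them has a wild-type p53 allele. There were 3 libraries per line. Each genotype is 1 line, so genotype and line cannot be told apart, and nothing in the labels says that the libraries of a line are separate cultures, which means that any p-value measures the spread between libraries only.

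p53 is a transcription factor that restrains growth and guards chromosome number, and mutations of its DNA-binding domain are frequent in human tumours. R172H corresponds to a human mutant that unfolds this domain, and R245W to a human mutant of a residue that contacts DNA. Osteosarcoma, a tumour of bone-forming cells, is known for chromosomes gained, lost and rearranged in large blocks. Mouse chromosome 18 carries genes of TGF-beta and BMP signalling (Smad2, Smad4, Smad7), of Wnt signalling (Apc, Csnk1a1), and the receptor genes Pdgfrb and Csf1r. ATAC-seq reads arise from every copy of a chromosome in the cell. In bulk data fewer copies of a chromosome and less open DNA per copy therefore cannot be told apart, and this touches every value below.

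Of 12 osteoblast lineage markers, 9 had a peak within 1000 bp of an end of the gene in all 9 libraries, among them Runx2, Sp7, Alpl and Col1a1. Bglap, Ibsp and Dmp1, markers of more mature bone cells, had none in any library. Among blood markers Spi1 was open in all libraries and Ptprc in none, and none of 3 endothelial markers was open. Krt8 was the 1 of 3 epithelial markers open in all libraries. Cd3e was open in R172H alone, Epcam in all R245W and 2 of 3 null libraries, and of 2 muscle markers Myod1 was open in all libraries but 1 of R172H while Myog was open in none. Total peaks per library were 75314 to 79424 in the R245W line, 72840 to 74352 in the R172H line and 65199 to 65942 in the null line. The R245W lists were thus the longest of the 9, while their chromosome 18 counts were the lowest.

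The R245W libraries had 1975, 2012 and 1909 called regions on chromosome 18, against 2283, 2354 and 2276 in the R172H libraries and 2206, 2258 and 2263 in the null libraries. No R245W library reached the lowest value of either other line. As a share of all called regions in the same library, chromosome 18 made up 2.59% ± 0.0251 in R245W, 3.19% ± 0.0166 in R172H and 3.48% ± 0.0304 in null (SD, n = 3 each). Peaks on the chromosome covered 1.54, 1.60 and 1.55 Mb in the R245W libraries, 1.72, 1.82 and 1.71 Mb in the R172H libraries, and 1.73, 1.80 and 1.74 Mb in the null libraries. The covered length was thus also lowest in all R245W libraries. Peak widths hardly differed, with medians of 670 to 701 bp in R245W, 645 to 674 bp in R172H and 664 to 697 bp in null.

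Regions called in all 9 libraries allow the strength of a call to be compared over the same DNA. Chromosome 18 had 1051 of them (26.6% of its regions), and the other chromosomes had 35422 of 120272 (29.5%). Column 7 of the lists is the fold of the peak over its local background and column 9 is the -log10 q of the call. From the fold and the p-value of column 8, the read pile-up at the peak's summit and the local background were recovered. Each value was set, on the log2 scale, against the same library's median over the 35422 common regions of the other chromosomes, and the median over the 1051 is given.

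The fold over background hardly differed. Scaled column 7 stood at -0.0024, -0.0040 and 0.019 in the R245W libraries, at 0.044, 0.070 and 0.062 in the R172H libraries and at 0.10, 0.11 and 0.10 in the null libraries. The order of the lines was the same as for the calls, with no overlap, but the distance from R245W to null was -0.10 (SE 0.0084). Unscaled, the median fold was 8.97, 8.94 and 8.82 in R245W, 9.24, 9.14 and 9.30 in R172H, and 9.68, 9.56 and 9.66 in null.

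Column 9 and the pile-up separated the lines by far more. Scaled column 9 was -0.37, -0.39 and -0.39 in R245W, -0.03, -0.06 and -0.04 in R172H, and 0.26, 0.28 and 0.30 in null. On this scale the R245W line stood below the median of the other chromosomes, R172H close to it and null above it. The scaled pile-up gave -0.41, -0.43 and -0.43 in R245W, -0.08, -0.05 and -0.06 in R172H, and 0.23, 0.23 and 0.24 in null. The difference between R245W and null in pile-up was -0.66 (SE 0.0084), a ratio of 0.634, and that between R245W and R172H was -0.36 (SE 0.0123), a ratio of 0.779.

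The unscaled pile-ups show the same in reads. At the common regions of chromosome 18 the median summit pile-up was 103, 114 and 105 in R245W, 100, 112 and 102 in R172H, and 143, 164 and 154 in null. At the common regions elsewhere it was 137, 154 and 141 in R245W, 106, 116 and 106 in R172H, and 122, 140 and 130 in null. The R245W libraries, which had on average the highest pile-ups of the 3 lines on the other chromosomes, were level with R172H on chromosome 18 and below null.

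The local background moved with the pile-up. Its scaled value was -0.54, -0.51 and -0.53 in R245W, -0.11, -0.12 and -0.13 in R172H, and 0.18, 0.18 and 0.17 in null, so that R245W stood at -0.70 against null (SE 0.0110) and at -0.41 against R172H (SE 0.0113). The peak caller never lets the local background fall below a floor set per library. Of the chromosome 18 peaks 44.6%, 44.9% and 45.1% sat at that floor in R245W, against 30.9% to 32.4% of the peaks elsewhere in the same libraries. The share was 38.1% to 39.6% on chromosome 18 and 31.8% to 32.0% elsewhere in R172H, and 30.9% to 31.9% and 28.2% to 29.3% in null. Relative to the other chromosomes, the pile-up and the caller's local background were thus both lower on chromosome 18 in R245W, and the fold between them was nearly kept. The background was solved from the same fold and p-value as the pile-up and is not a separate count of reads around the peak. The caller's settings were not given, so how far this background holds the peak's own reads cannot be told.

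**Figure D1:**
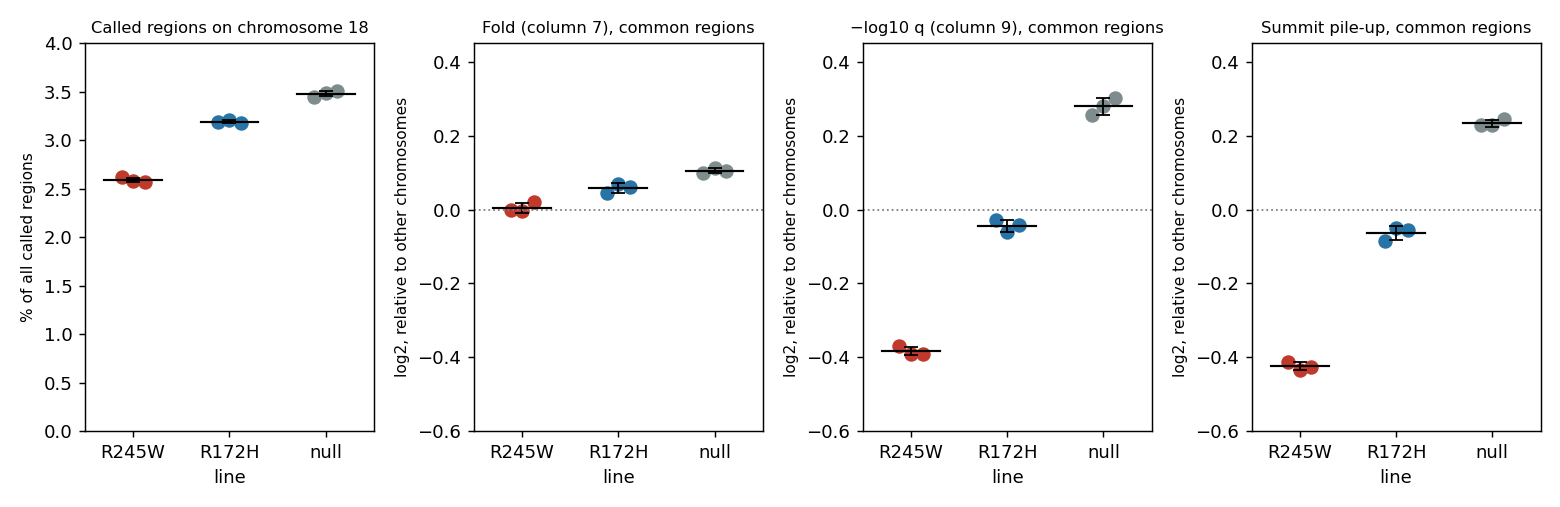
Values of each library on chromosome 18, by line (points are libraries, horizontal bars the mean, error bars the SD, n = 3): share of called regions in percent, and, at the 1051 regions called in all 9 libraries, the median of column 7, column 9 and the summit pile-up as log2 against the same library's other chromosomes. The lines do not overlap in any panel, and R245W and null lie 0.10 apart in column 7 but 0.66 apart in column 9 and in the pile-up.

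Most single regions were also lower in R245W in pile-up. The scaled pile-up was lower in R245W than in null at 915 of the 1051 common regions (87.1%), against 53.3% of those elsewhere, and lower than in R172H at 816 (77.6%), against 63.5%. All 3 R245W libraries were below all 6 others at 610 regions (58.0%), where the share over all common regions of the genome was 24.8%. For column 9 this held at 523 regions (49.8%, against 23.8% over the genome) and for column 7 at 200 (19.03%, against 16.7%). The opposite order, with R245W above all others in pile-up, was found at 30 regions (2.85%, against 12.2%).

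The spread between regions was wide around these shifts. The middle 50% of the differences in pile-up between R245W and null ran from -0.93 to -0.36 on chromosome 18, with a median of -0.69, and from -0.36 to 0.30 elsewhere. Against R172H the same range was -0.90 to -0.08 on chromosome 18, with a median of -0.62. Elsewhere it was -0.60 to 0.27, with a median of -0.22. The median over regions thus lay further from R172H than the -0.36 between the chromosome medians. Between R172H and null the median over regions was -0.06 on chromosome 18 and 0.21 elsewhere, beside -0.30 between the chromosome medians.

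Among the 19 autosomes, chromosome 18 was lowest for R245W in every measure and against either line. Its share of calls had a ratio of 0.744 over null, where the other 18 autosomes ran between 0.801 (chromosome 7) and 1.196 (chromosome 6). Over R172H the ratio was 0.812, where the others ran between 0.884 (chromosome 8) and 1.265 (chromosome 3). The scaled pile-up of -0.66 against null compares with -0.46 to 0.41 on the others, and that of -0.36 against R172H with -0.27 to 0.50. For column 7 against R172H the gap to the next chromosome was small, at -0.05 on both chromosome 18 and chromosome 12.

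**Figure D2:**
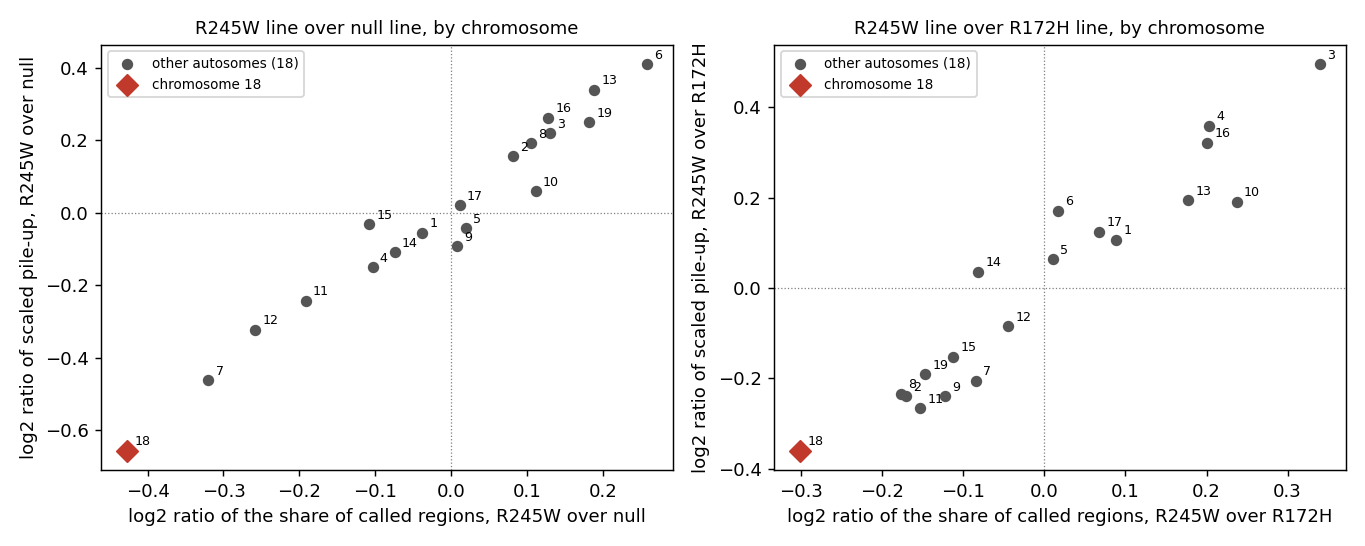
Each of the 19 autosomes by the log2 ratio of its share of called regions (x axis) and the log2 ratio of its scaled summit pile-up (y axis), R245W over null on the left and R245W over R172H on the right. Chromosome 18 (red diamond) is the lowest point on both axes in both panels, at -0.66 against null and -0.36 against R172H in pile-up. The points share their libraries and are not replicates.

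The chromosome was picked for R245W against the other lines, whose calls entered that choice as the level R245W was set against. The difference between R172H and null was not what the choice used, and it was tested. R172H was lower than null in all 3 measures tested, of which scaled columns 7 and 9 are medians over the common regions of each library. The differences were -0.290 percentage points in the share of calls (SE 0.0200), -0.05 in scaled column 7 (SE 0.0085) and -0.32 in scaled column 9 (SE 0.0161). The libraries did not overlap. The exact two-sided permutation test over the 20 splits of 3 against 3 libraries gave p = 0.1 for each, adjusted p = 0.1 over the 3 measures by Benjamini-Hochberg, which is the smallest value this design allows and does not pass 0.05. The ratio of the chromosome's share of calls, R172H over null, was 0.917, and 6 of the other 18 autosomes had a lower one. In the strength of the calls it was nearer to the low end, with 2 autosomes lower in scaled column 7, and 1 lower in scaled column 9 and in the pile-up. Region by region the gap was not seen in column 7 and was small in column 9. The median difference between R172H and null over the 1051 common regions was 0.015 in scaled column 7 and -0.016 in scaled column 9. R172H was lower at 47.6% and 52.0% of them, against 45.5% and 38.0% elsewhere, where the medians were 0.029 and 0.234.

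Calls missing from 1 line sort the regions by line. Regions called in all libraries of R172H and null and in none of R245W numbered 105, which is 2.65% of the chromosome's regions and compares with 0.858% over all merged regions. Regions called in null alone numbered 223 (5.63%, against 2.74% over all) and in R172H alone 477 (12.1%, against 9.83%). Regions called in R245W alone were 132 (3.34%, against 5.79%). Regions absent from R172H were close to the share over the genome, at 235 (5.94%, against 6.21%), and those absent from null numbered 84 (2.12%, against 3.04%).

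Pair by pair, with a region called in all 3 libraries of a line and in none of another, 236 regions were called in R245W and not in null (5.96%, against 10.0% over all merged regions) and 371 in null and not in R245W (9.37%, against 4.03%). Losses thus exceeded gains on the chromosome, while the genome as a whole had more gains. Against R172H, 421 regions were called in R245W alone of the pair (10.6%, against 13.8%) and 637 in R172H alone (16.1%, against 11.5%). Between R172H and null the counts were 592 (15.0%, against 14.5%) and 528 (13.3%, against 10.3%).

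The regions missing from R245W were mostly weak in the libraries that called them, as were those of this pattern elsewhere. The lowest percentile of column 9 within the calling libraries had a median of 22.9 on chromosome 18 and of 19.7 on the other chromosomes, and 10 of the 105 (9.52%) were above the 50th percentile in every calling library, against 10.9% on the other chromosomes. Few lay at gene ends: 4 (3.81%) were within 1000 bp of an end of a protein-coding gene, against 5.52% of such regions on the other chromosomes and 11.2% of all regions on chromosome 18. Regions of R172H alone (3.77%) and of null alone (2.24%) had low shares too. Of the 132 regions of R245W alone 17 were at a gene end (12.9%, against 6.56% of such regions on the other chromosomes), but 10 of the 17 lie in the protocadherin cluster described at the end, and outside it the share was 7 of 122 (5.74%).

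Fewer of the stronger regions were without a call. Of 1232 chromosome 18 regions called in all 6 R172H and null libraries, 105 (8.52%) had no R245W call, against 2.56% on the other chromosomes. Among regions in the 20th to 40th percentile of column 9 in those 6 libraries 23.4% had none, against 7.06% elsewhere. In the 60th to 80th percentile it was 3.43% against 1.16%, and above the 80th 1 of 338 regions. In each class the share on chromosome 18 was thus above that of the other chromosomes. The same count for regions called in all R245W and null libraries gave 17.1% absent from R172H on chromosome 18 and 16.2% elsewhere, and for regions called in all R245W and R172H libraries 7.10% absent from null and 8.88% elsewhere.

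**Figure D3:**
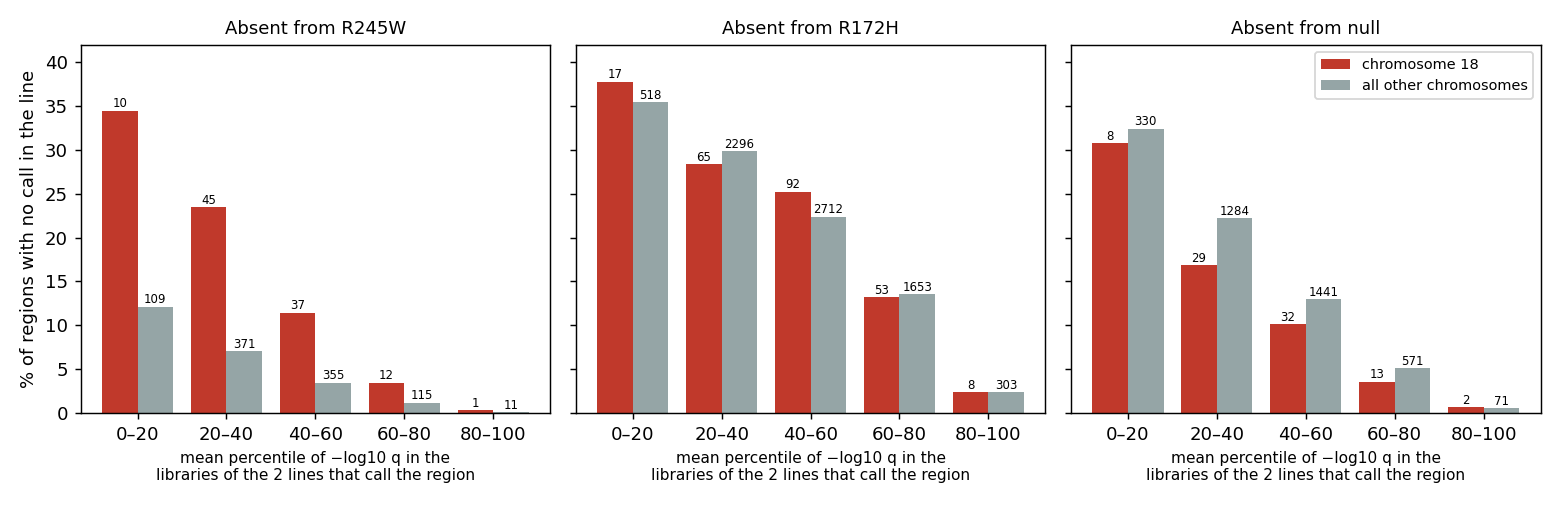
Share of regions without a call in 1 line, among regions called in all 6 libraries of the other 2 lines, by the mean percentile of column 9 in those 6 libraries (x axis). Red bars are chromosome 18, grey bars all other chromosomes, and the number above a bar is the count of regions without a call. For R245W the red bar is higher in each of the 5 classes (23.4% against 7.06% in the second), while for R172H and null the bars of a class lie closer together or change order.

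Along the chromosome the lower R245W counts were found in nearly every stretch. Calls were counted in 19 windows of 5 Mb and scaled to 10000 calls on the other chromosomes of the same library. R245W was the lowest line in 18 of the 19 windows, and in 15 of them each R245W library was below every other library. In the 18 windows that hold 20 or more regions these counts were 17 and 14. The scaled pile-up at common regions was lowest in R245W in 17 of 19 windows, and in 14 of the 15 with 20 or more common regions. Column 7 was lowest there in 12 of those 15 and column 9 in 13.

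The exception in the calls was the gene-poor window between 15 and 20 Mb, which holds 5 protein-coding genes, among them Cdh2. It had 27, 28 and 32 calls in the R245W libraries, 32, 31 and 29 in the R172H libraries, and 17, 15 and 18 in the null libraries. Here R245W and R172H overlapped and null was lowest. The scaled R245W calls were 1.11 times the mean of the other lines, the highest ratio of the chromosome, followed by 0.89 in the windows at 20 to 25 Mb and 45 to 50 Mb. At the 10 common regions of the 15 to 20 Mb window the scaled pile-up was -0.98 in R245W, -0.10 in R172H and -0.87 in null.

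The lowest ratios lay in windows with few regions. The last window, from 90 Mb, had 5 regions and a ratio of 0.56, that at 25 to 30 Mb had 57 regions and a ratio of 0.59, and that at 85 to 90 Mb had 55 regions and a ratio of 0.64. Between 25 and 30 Mb the calls were 20, 21 and 21 in R245W, 42, 43 and 40 in R172H and 23, 23 and 21 in null, so that the ratio there rests on the high R172H counts. Among windows rich in regions, the one at 5 to 10 Mb had 116, 122 and 117 calls in R245W, 141, 138 and 127 in R172H, and 166, 173 and 176 in null. It combines the lowest calls in R245W with the highest in null, and its scaled calls had a ratio of 0.58 of R245W over null.

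The densest window, at 35 to 40 Mb with 429 regions and 119 protein-coding genes, had 239, 241 and 224 calls in R245W, 272, 278 and 276 in R172H, and 243, 246 and 243 in null. Unscaled, R245W and null were close there. After scaling by the calls on the other chromosomes R245W stood at 31.8 ± 0.78, R172H at 39.4 ± 0.34 and null at 39.3 ± 0.15 calls per 10000 (SD, n = 3). In pile-up the range between lines was widest, among windows with 20 or more common regions, between 45 and 50 Mb, where the 24 common regions had a median of -0.67 in R245W, 0.22 in R172H and 0.41 in null. In the first 5 Mb the order was different, at -0.01 in R245W, -0.27 in R172H and 0.37 in null over 31 common regions.

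**Figure D4:**
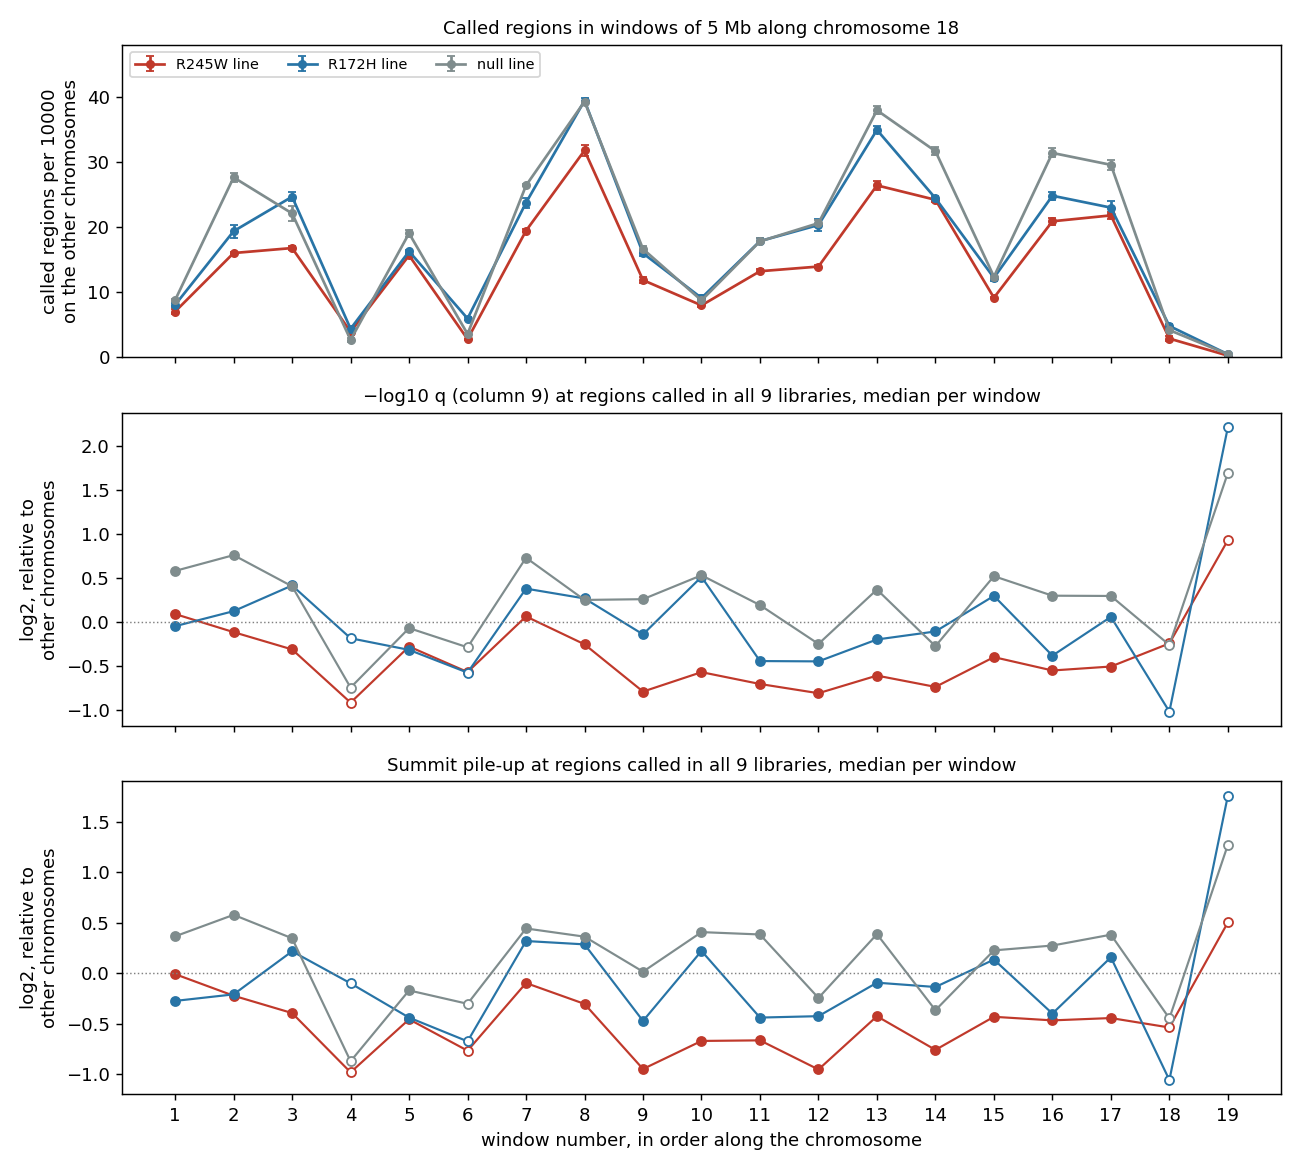
Windows of 5 Mb in order along chromosome 18 (x axis, window 1 starts at position 0): called regions per 10000 calls on the other chromosomes (top, mean and SD of 3 libraries), and the median scaled column 9 (middle) and scaled summit pile-up (bottom) at regions called in all 9 libraries, on the log2 scale. R245W (red) runs below R172H (blue) and null (grey) in calls in all windows but window 4, and open symbols mark windows with fewer than 20 common regions.

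Long stretches without a single peak in any library of a line, but with 5 or more regions called in all libraries of another line, were counted next. R245W had 11, R172H 4 and null 13. Such stretches were not counted on other chromosomes, so these counts have no level to be set against. All 11 of R245W qualified through regions called in R172H and none through null. Those of null qualified through R172H too, except that from 36803274 to 37005107, which did so through R245W. The longest in R245W ran from 25727190 to 30045904 (GRCm38, 4319 kb) and overlaps an end of Celf4, which encodes an RNA-binding protein of neurons. It held 16, 16 and 12 calls in the R172H libraries and 2, 4 and 2 in the null libraries. A second R245W stretch, from 86058378 to 86600970 (543 kb), overlaps Neto1, an auxiliary subunit gene of glutamate receptors, and had 7, 9 and 8 calls in R172H and 1, 1 and 0 in null. In both stretches most of the calls were in R172H libraries.

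The third R245W stretch, from 13305882 to 13787139 (481 kb), reaches into Zfp521, a zinc finger gene that restrains osteoblast differentiation. It had 5 calls in each R172H library and none in null. In null the longest stretches were 47637126 to 49488166 (1851 kb, with 2, 2 and 1 calls in R245W and 5 in each R172H library), 26015801 to 27421310 (1406 kb, with 0 calls in R245W and 7, 7 and 5 in R172H) and 16217379 to 16704817 (487 kb, overlapping Cdh2, with 1, 2 and 4 calls in R245W and 7, 5 and 5 in R172H). In R172H they were 14113567 to 14607758 (494 kb), 81427108 to 81761961 (335 kb) and 36802341 to 37091861 (290 kb). The last of these overlaps Pcdha genes and had 9, 9 and 10 calls in R245W and 2, 2 and 2 in null.

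For each pattern of calls the regions strongest in their calling libraries were identified. The strongest region absent from R245W, at 12972851 to 12974592, lies inside the span of Impact, an imprinted gene for a regulator of translation, 18161 bp from its nearer end. Its column 9 was not listed in any R245W library, was 187, 163 and 164 in R172H and was 207, 202 and 219 in null. Its lowest percentile of column 9 in a calling library was 86.8, and the next region of this pattern stood at 63.4. That region, at 37655266 to 37656341, lies 5434 bp from Pcdhga1, a clustered protocadherin gene. Column 9 there was 45.3, 53.9 and 54.4 in R172H and 60.3, 83.2 and 82.1 in null. The others were inside Zfp407, a zinc finger gene (84504062 to 84504891), and inside Pkd2l2, a polycystin-like gene (34415808 to 34416346).

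Of the regions called in R245W alone, the strongest was at 65349179 to 65350286 inside Alpk2, which encodes an alpha-kinase. Its column 9 was 153, 158 and 133 in the R245W libraries, with no peak in the other 6. A region at 73734596 to 73735717 overlapped an end of Elac1, a gene of transfer RNA processing, with 105, 92.5 and 94.6 in R245W. The remaining regions of this set were inside Epb41l4a (33890314 to 33892038) and 90 bp from Ctxn3 (57466864 to 57467661). Strong calls of R245W alone therefore occurred on the chromosome although its calls there were fewer.

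R172H alone had the strongest private regions. At 52786540 to 52787699, inside the span of Sncaip, which encodes a partner of alpha-synuclein, column 9 was 243, 254 and 268 in R172H. At 10838783 to 10840924, which is 20205 bp beyond the end of Mib1, a ubiquitin ligase gene of Notch signalling, it was 233, 264 and 239. In null alone the strongest region was inside Slc14a1, a urea transporter gene, at 78130633 to 78131122, with 178, 194 and 186. All of these had no peak in the other lines. The strongest region absent from R172H lay 13067 bp from Smad7, at 75353435 to 75354298, with column 9 of 127, 138 and 125 in R245W and 201, 279 and 238 in null. The strongest absent from null overlapped an end of B4galt6, a gene of glycolipid synthesis, at 20745284 to 20746818, with 188, 263 and 234 in R245W and 115, 145 and 141 in R172H.

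The chromosome carries 511 protein-coding genes in the RefSeq table of GRCm38.p6. A list of 54 genes with known roles in cancer and a list of 30 with roles in bone or skeletal development, 15 of them on both, held 69 genes on the chromosome. A gene end was counted as open where a peak lay within 1000 bp of either end of the gene's span. The table gives no exons or promoters inside a span, so an end without a peak does not show that the gene's promoters were closed. Of the cancer list 47 of 54 genes were open in all 9 libraries and of the bone list 26 of 30, together 60 of 69, against 294 of the 511 genes of the chromosome and 12039 of 21900 in the genome. Regions were also assigned to the gene with the nearest end within 50000 bp, which gave 621 regions to 67 of the 69 genes.

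The open ends of the listed genes showed the same shift in pile-up as the chromosome. All 3 R245W libraries were below all 6 others in scaled pile-up at 51 of the 60 list genes open in all libraries (41 of 47 cancer genes and 22 of 26 bone genes). This held at 240 of all 294 such genes on the chromosome, and at 37.7% of the 12039 such genes in the genome. The median difference between R245W and null was -0.73 for the cancer list, -0.79 for the bone list and -0.76 for the 294 genes, and against R172H it was -0.78, -0.75 and -0.74. The lists did not stand apart from the other genes of the chromosome. In column 7 the medians against null were -0.05, -0.05 and -0.03. All R245W libraries were lowest at 8 of 47 cancer genes, 7 of 26 bone genes and 46 of the 294, against 24.9% of such genes in the genome. In column 7 R245W was thus not lowest more often at these ends than in the genome. Between R172H and null the medians in pile-up were 0.03, 0.01 and 0.0049.

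**Figure D5:**
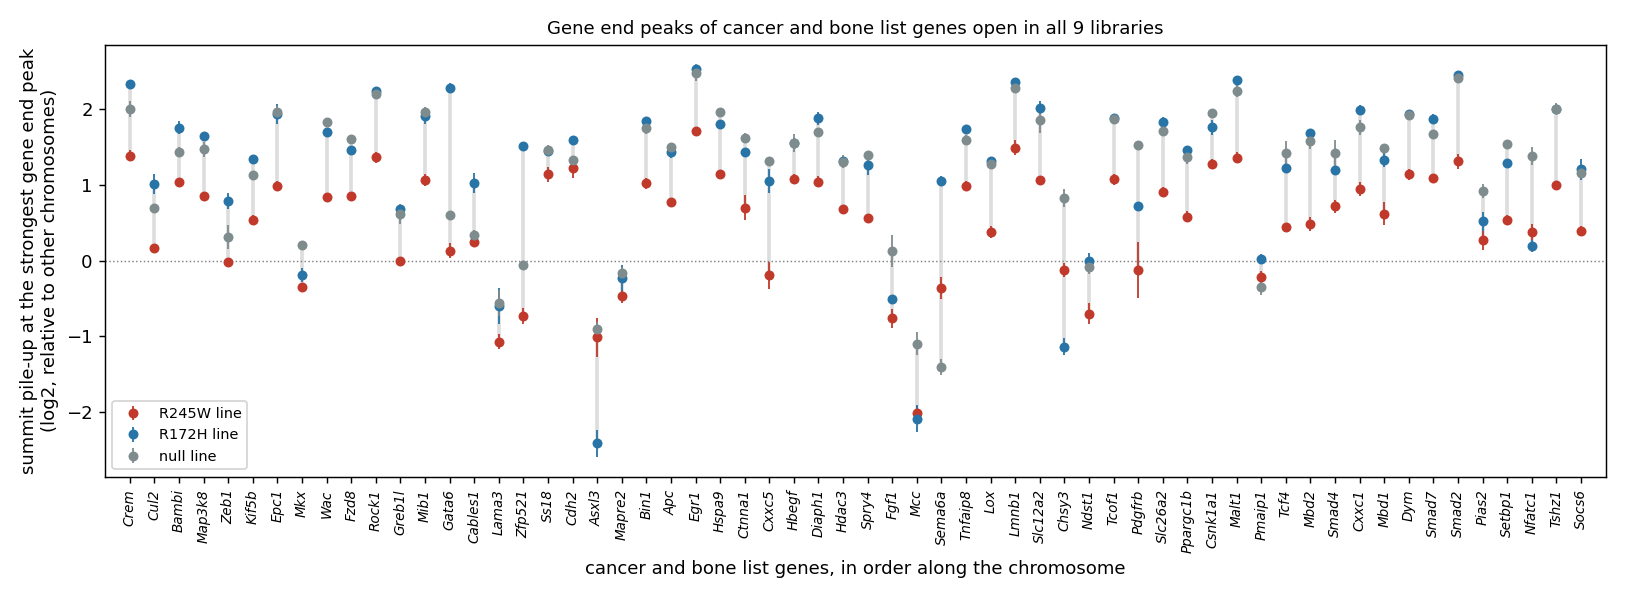
Scaled summit pile-up (log2, mean and SD of 3 libraries) of the strongest peak at the gene ends of the 60 cancer and bone list genes open in all 9 libraries, in order along the chromosome. R245W (red) is the lowest point at most genes, and at 51 of them each of its libraries is below all others, while Gata6, Zfp521, Sema6a, Chsy3 and Asxl3 show the widest gaps between R172H (blue) and null (grey).

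At Smad2, Smad4, Smad7 and Bambi, 4 listed genes of TGF-beta and BMP signalling described for their known roles, all R245W libraries were lowest in scaled pile-up. Smad2, an intracellular mediator of TGF-beta (76241090 to 76311748), had summit pile-ups of 324, 372 and 378 in R245W, 593, 621 and 579 in R172H, and 672, 725 and 695 in null. All R245W libraries were far below the others, and the scaled values were 1.31 ± 0.10 in R245W, 2.45 ± 0.03 in R172H and 2.42 ± 0.04 in null (SD, n = 3). Its column 9 was 224, 266 and 271 in R245W, 436, 447 and 431 in R172H, and 496, 529 and 527 in null, whereas its column 7 was 11.9, 12.7 and 12.8 in R245W, 13.5, 13.0 and 13.8 in R172H, and 13.7, 13.4 and 14.4 in null. Smad2 also had 3 regions called in all null libraries and in no R245W library, and 0 in the opposite direction. The relative gap in column 7 was small beside that in the pile-up.

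Smad4, the common partner of the receptor-regulated Smads (73634790 to 73703791), had column 9 values of 147, 177 and 166 in R245W, 169, 179 and 171 in R172H, and 276, 279.5 and 219 in null. Before scaling R245W and R172H overlapped, and after scaling its pile-up differed by -0.48 from R172H and by -0.70 from null. Smad7, an inhibitor of the pathway (75367365 to 75395935), had pile-ups of 293, 330 and 301 in R245W, 410, 409 and 384 in R172H, and 396, 440 and 419 in null, with scaled differences of -0.78 from R172H and -0.58 from null. Of the 17 regions assigned to Smad7, 2 were called in null and not in R245W and 0 the reverse, and 3 were called in R245W and not in R172H and 2 the reverse. Bambi, a decoy receptor of the pathway, had scaled differences of -0.72 from R172H and -0.40 from null.

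Genes of Wnt signalling and the colorectal cancer gene Mcc are given next. Apc, a scaffold of the complex that destroys beta-catenin (34220297 to 34322190), had pile-ups of 236, 263 and 239 in R245W, 300, 315 and 270 in R172H, and 354, 383 and 370 in null, all R245W values being lowest. Csnk1a1, a kinase of the same complex, had a scaled difference from null of -0.67, and 3 of its 17 regions were called in null and not in R245W. Fzd8, a Wnt receptor gene, stood at -0.76 from null and -0.61 from R172H. Cxxc5, an inhibitor of Wnt signalling (35829379 to 35861693), had 115, 122 and 141 in R245W, 229, 212 and 239 in R172H, and 305, 360 and 312 in null. Its scaled difference from null was -1.51, against a median of -0.79 over the bone list. Mcc, a gene mutated in colorectal cancers (44425060 to 44812182), had weak peaks with pile-ups of 32, 41 and 34 in R245W, 25, 24 and 28 in R172H and 59, 58 and 66 in null, where R245W and R172H overlapped after scaling.

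Among receptor and growth factor genes Csf1r departed from the rest. Pdgfrb, the receptor for PDGF-B of mesenchymal cells (61045127 to 61085067), had column 9 values of 63.4, 78.1 and 61.5 in R245W, 92.1, 109 and 104 in R172H, and 174, 203 and 193 in null. The 3 lines did not overlap, and in replicate 3 of R245W the strongest peak had a higher column 7 (9.85) than in the other R245W libraries (6.36 and 6.60). Its neighbour Csf1r, the receptor for macrophage colony-stimulating factor of the osteoclast lineage (61105572 to 61131139), was open in R245W alone. There column 9 was 24.4, 26.9 and 13.9 in the R245W libraries, and no R172H or null library had a peak within 1000 bp of its ends. At these gene ends the neighbouring genes thus went in opposite directions. The Csf1r peaks stood at percentiles of 44.6, 46.3 and 29.8 of column 9 in their lists. With ends of 2000 bp Csf1r no longer counted as open in R245W and not in R172H. Of its 8 regions 2 were called in R245W and not in null and 1 the reverse. Fgf1, a fibroblast growth factor gene, had pile-ups of 89, 84 and 81 in R245W, 75, 79 and 76 in R172H and 147, 164 and 120 in null. After scaling it stood at -0.77 in R245W, -0.51 in R172H and 0.13 in null, with R245W lowest. Spry4, an inhibitor of such signals, had scaled differences of -0.84 from null and -0.70 from R172H.

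The transcription factor genes Gata6 and Zfp521 had their highest pile-ups in R172H. Gata6, a zinc finger factor of endoderm and heart (11052510 to 11085636), had pile-ups of 139, 179 and 157 in R245W, 494, 574 and 535 in R172H, and 191, 205 and 197 in null. R172H stood far above both lines, with a scaled difference of 1.69 from null, while R245W stood at -0.47 from null. Column 7 ran the other way, at 7.49, 8.42 and 8.02 in R245W, 5.62, 6.11 and 6.26 in R172H and 8.83, 7.64 and 8.39 in null. Of the 15 regions assigned to Gata6, 7 were present in every R172H library but absent from R245W, and 7 were present in every R172H library but absent from null. Zfp521 (13687013 to 13972749) had 76, 94 and 90 in R245W, 298, 329 and 309 in R172H, and 116, 135 and 125 in null, again with R172H highest and R245W lowest. These gaps between R172H and null were not tested gene by gene, since 3 against 3 libraries cannot go below p = 0.1 in an exact permutation test.

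Egr1, an immediate early gene (34861207 to 34864956), had among the highest pile-ups of the lists, with 453, 510 and 451 in R245W, 608, 686 and 613 in R172H, and 737, 723 and 729 in null. Every R245W library was below the others, and so was its column 7, at 3.92, 3.99 and 3.61 in R245W, 4.41, 4.37 and 4.19 in R172H and 5.16, 4.52 and 4.99 in null. Zeb1, a factor of mesenchymal transition, had scaled pile-ups of -0.02 ± 0.06 in R245W, 0.78 ± 0.10 in R172H and 0.31 ± 0.16 in null. Mkx, a homeobox gene of tendon (6934966 to 7004779), was among the bone genes with the widest range of column 7, at 4.24, 4.46 and 4.18 in R245W, 7.503, 8.63 and 7.91 in R172H and 6.67, 6.09 and 6.57 in null. Tcf4, which encodes an E protein, a basic helix-loop-helix factor (69343429 to 69687967), had pile-ups of 184, 213 and 189 in R245W, 258, 263 and 244 in R172H, and 345, 329 and 374 in null. Of its 18 regions 4 were called in R245W and not in R172H, 1 the reverse, and 5 in null and not in R172H. Nfatc1, the master factor of osteoclasts (80606205 to 80713071), had pile-ups of 175, 187 and 199 in R245W, 128, 132 and 115 in R172H, and 350, 343 and 329 in null, so that R172H and not R245W was lowest.

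Chromatin and cell cycle genes added further examples. Epc1, a subunit gene of the NuA4 acetyltransferase complex (6435951 to 6516108), had pile-ups of 262, 299 and 294 in R245W, 414, 405 and 443 in R172H, and 507, 533 and 491 in null, and 4 of its 22 regions were called in R172H and not in R245W. Mbd2, a reader of methylated DNA, stood at -1.09 from null and -1.21 from R172H in scaled pile-up. Asxl3, a Polycomb-associated gene (22344077 to 22530227), had 67, 64 and 84 in R245W, 19, 25 and 18 in R172H, and 62, 80 and 69 in null, where R245W and null overlapped and R172H was lowest. Rbbp8, which encodes the DNA end resection factor CtIP (11633276 to 11743207), had a peak at a gene end in R172H alone, with a column 9 of 7.54, 7.95 and 3.67, all below the 19th percentile of their lists. Pmaip1, the p53 target that encodes the pro-apoptotic protein NOXA, was an exception to the shift, with 126, 128 and 116 in R245W, 110, 113 and 111 in R172H, and 104, 110 and 95 in null. Its scaled R245W values overlapped those of null.

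Matrix and skeletal genes did not all have R245W lowest. Lox, the collagen cross-linking enzyme (52516060 to 52529867), had pile-ups of 189, 200 and 174 in R245W, 269, 290 and 262 in R172H, and 296, 336 and 318 in null, with R245W lowest throughout. Slc26a2, a sulfate transporter of cartilage, was at -0.82 from null and -0.94 from R172H in scaled pile-up. Fbn2, which encodes the microfibril protein fibrillin-2 (58008623 to 58210572), had a column 9 of 10.3, 14.1 and 11.6 in R245W and 67.4, 89.9 and 86.2 in R172H, and no peak at a gene end in null. A peakless stretch of null, from 58033854 to 58481911 (448 kb), overlaps part of its span, and 10 regions inside were called in all R172H libraries.

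Chsy3, a chondroitin synthase gene (59175340 to 59411336), had 117, 145 and 136 in R245W, 51, 48 and 50 in R172H, and 202, 244 and 252 in null, so that R245W lay between the other lines. Sema6a, a semaphorin gene (47245254 to 47371200), had 101, 134 and 103 in R245W, 232, 237 and 212 in R172H, and 45, 57 and 46 in null. Among the 60 list genes open in all 9 libraries it had the largest excess of R245W over null, at 1.05 on the scaled log2 scale. Cdh2, the gene of N-cadherin (16588877 to 16809246), had 325, 327 and 354 in R245W, 316, 350 and 327 in R172H and 307, 341 and 335 in null, with overlap before scaling and a scaled difference of -0.11 from null. Together with Asxl3, Cables1, Mcc, Nfatc1, Pias2 and Pmaip1, these 3 make up the 9 list genes at which R245W was not below all other libraries.

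Regions gained and lost near the other list genes did not all go the way of the pile-up. Of the 13 regions assigned to Tnfaip8, which encodes a regulator of apoptosis, 4 were called in R245W and not in null and 0 in null and not in R245W, and 4 were called in R245W and not in R172H against 1 the reverse. Its own end nonetheless had pile-ups of 275, 318 and 267 in R245W, 353, 373 and 369 in R172H, and 359, 447 and 385 in null, R245W being lowest. Ss18, the gene fused in synovial sarcoma, had 2 of its 10 regions called in R245W and not in null, 4 in R245W and not in R172H, and 0 in either reverse direction. Its scaled pile-up differed by -0.32 from null and by -0.31 from R172H, which is less than the list medians. Cables1, a gene of a cyclin-dependent kinase adaptor, also had 2 of 20 regions called in R245W and not in null, and 0 the reverse.

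The other list genes with a net change of 2 or more regions against null had fewer in R245W. Mapre2, which encodes a microtubule end-binding protein, had 4 of 13 regions called in null and not in R245W, and its column 7 was 5.52, 5.896 and 5.25 in R245W, 6.73, 7.40 and 6.34 in R172H, and 5.10, 5.01 and 4.75 in null. Lmnb1 (lamin B1), Malt1 (a paracaspase) and Setbp1 (a SET-binding protein) each had 2 regions called in null and not in R245W and 0 the reverse, with scaled pile-up differences from null of -0.78, -0.89 and -0.998. Zeb1 and Mbd2 had 2 such regions each as well. Greb1l, a gene of kidney development, and Ndst1, a gene of heparan sulfate synthesis, had 3 each against 1 the reverse. Column 7 at Ndst1 was 3.47, 3.45 and 3.93 in R245W, 5.81, 6.58 and 6.14 in R172H, and 2.996, 3.27 and 3.01 in null, with R172H highest. Against R172H, Ppargc1b, a coactivator gene of mitochondrial genes, had 4 of 13 regions called in R172H and not in R245W and 0 the reverse, and Slc12a2, an ion cotransporter gene, had 2 of 6. Mib1 had 4 of 14 called in R172H and not in R245W and 2 the reverse. Kif5b, a kinesin gene, and Socs6, a suppressor of cytokine signalling, were net lower by 2 regions in R172H than in null, and their scaled pile-ups in R245W differed by -0.59 and -0.77 from null.

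The list genes not open in all libraries were 9. Besides Rbbp8, Csf1r and Fbn2 there was Mapk4, a MAP kinase gene, whose pile-ups were 71, 65 and 67 in R245W, 134, 135 and 145 in R172H, and 20 and 23 in the 2 null libraries with a peak. Pik3c3, Nr3c1, Adamts19, Nedd4l and Dcc had no peak within 1000 bp of the ends of their spans in any library. Regions were nonetheless assigned to Nr3c1, the glucocorticoid receptor gene, where 3 of 7 were called in R172H and not in R245W and 3 in R172H and not in null, and to Nedd4l (14 regions) and Pik3c3 (5 regions). Dcc and Adamts19 had none. Over all list genes the net number of regions, R245W over null, was positive at 12, negative at 18 and zero at 24 of the cancer genes, and 5, 12 and 13 of the bone genes, against 75, 127 and 309 of all 511 genes.

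Gene ends called in 1 line and not in another were more often those of R245W, but against R172H this did not hold without a single gene cluster. On chromosome 18, 39 of 511 genes (7.63%) had an end open in R245W and not in null, against 3.30% of genes in the genome, and 5 (0.978%, against 0.543%) in null and not in R245W. With R172H the counts were 22 open in R245W and not in R172H (4.31%, against 2.57%) and 14 in R172H and not in R245W (2.74%, against 1.61%). Between R172H and null they were 22 (4.31%, against 3.19%) and 9 (1.76%, against 1.27%). Of list genes, Csf1r and Fbn2 were among the 39, and none was among the 5.

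Most of the 39 were protocadherins, which encode adhesion proteins chosen stochastically by single neurons. The Pcdha, Pcdhb and Pcdhg genes, singled out after their values were seen, form a cluster of 57 genes from 36930285 to 37841873 (912 kb), and 27 of the 39 belong to it. The genes are not all separate measurements: the 57 genes have 57 distinct left-hand ends but 30 distinct right-hand ends, and 10 of them share a single right-hand end. The cluster's 47 regions were called 30, 31 and 31 times in the R245W libraries, 18, 21 and 20 times in the R172H libraries, and 15, 17 and 14 times in the null libraries. Here R245W was highest, opposite to the chromosome as a whole. These counts were not scaled to the length of the lists, which were longest in R245W. In the Pcdha stretch without a null peak, from 36803274 to 37005107, 7 regions were called in all R245W libraries. They were weak, with a median percentile of column 9 of 20.2. A region near Pcdhga12, absent from null alone, was stronger, with a lowest percentile of 73.2 in its calling libraries. Of the 47 regions 10 were called in R245W alone, 3 in R172H alone and 3 in null alone. At the shared end column 9 was 8.59, 10.7 and 8.02 in the R245W libraries and 2.81 in 1 R172H library, with no peak in null. Without the cluster and the genes that span it, 9 of 451 genes (1.996%) had an end open in R245W and not in null and 2 (0.443%) the reverse, the first share being below the 3.30% of the genome. Against R172H the order turned over without the cluster, with 11 genes (2.44%) open in R245W and not in R172H and 13 (2.88%) open in R172H and not in R245W. Between R172H and null 16 (3.55%) and 5 (1.11%) were left.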

How the data were processed

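ATAC-seq libraries of 3 mouse osteosarcoma lines, 3 per line, were analysed from the narrowPeak lists that the authors deposited on GRCm38. Per the submitters' processing notes the tools were MACS2 2.1.0, Bowtie 1.1.2, Trimmomatic 0.33, bcl2fastq 2.17 and deepTools. The settings, any shift of reads for the transposase, duplicate removal and read depth were not given in the sources used here. Column 7 of the deposited lists is the fold of a peak over background, a ratio; columns 8 and 9 are the -log10 p and -log10 q values that the authors' peak caller wrote. The lowest -log10 q shows that the lists hold calls at a q of 0.05. Column 5, a score deposited with each peak, and the summit offset of column 10 were not used for the main values. Peaks were called per library.

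Peaks were merged by 1 bp overlap, and a library was represented in a region by its peak with the highest column 9. Assuming fold = (pile-up + 1) / (background + 1) and a Poisson p, whole pile-ups were recovered for 648618 of 648618 peaks within 0.005 of -log10 p. The commonest background, a relative measure of depth, was 5.65 to 6.39 in R245W, 4.77 to 5.36 in R172H and 5.02 to 5.80 in null. Genes and their spans come from RefSeq GRCm38.p6. Named are list genes with an end open in 1 line and not in another, with 2 or more net regions, or with the widest range of column 7 (3 per list), and the 4 strongest regions per pattern, 3 lowest and 3 highest windows and 3 longest intervals per line. Other genes were named to describe their pathway, and the protocadherin cluster because of its values. The result of 1 marker gene is not reported here. The members, the lists and the tests were chosen with earlier results of these data known. Between any pair of lists 0.0537% to 0.267% of intervals were identical, so no list is a copy of another. Scripts ran in Python 3.11.15 with numpy 2.4.6, pandas 2.3.3 and scipy 1.17.1, and were tested on simulated lists.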

Additional observations from a re-analysis of the deposited data

How the results depend on the processing

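Of 353 values recomputed under alternatives for 25 results, 320 were counted as unchanged, 33 as moved beyond 1 SD of the libraries or 1.5 times a count, and 0 changed direction. The 320 include values that could not come out as moved, so they overstate how much was tested. With the replicate block all differences had to be the same. Differences between R172H and null in share, column 7, column 9 and pile-up were counted by their exact permutation p. That p cannot fall below 0.1, or 0.25 with the replicate block, and so cannot pass 0.05. These differences were therefore always counted as unchanged, although some moved beyond 1 SD. Scaled over autosomes other than 8, 18 and 19, pile-up was -0.251 against -0.297 (SD 0.0202) and share -0.226 against -0.290 (SD 0.0346). Over 1000 bp from gene ends, scaled column 9 was -0.261 against -0.323 (SD 0.0280). The difference in the share of calls between R245W and null, -0.892 percentage points, was -0.805 with a -log10 q of 5 or more, -0.827 with lists of equal length and -0.935 scaled over autosomes other than 8, 18 and 19, and that between R245W and R172H, -0.601, was -0.558, -0.562 and -0.708. Scaled pile-up, R245W minus null, was -0.62 with windows of 250 bp around summits, -0.64 scaled over the other autosomes and -0.70 over 1000 bp from gene ends. Against R172H it was -0.33 at a -log10 q of 5 or more, -0.33 with equal lengths, -0.33 around summits, -0.39 over the other autosomes and -0.40 away from gene ends. Scaled column 9 away from gene ends was -0.71 against null and -0.45 against R172H, with -0.32 against R172H at equal lengths, and scaled column 7 was -0.15 and -0.10. Of list genes, the 1 open in R172H and not in R245W, Rbbp8, was 0 at a -log10 q of 5 or more, with equal lengths and with ends of 500 or 2000 bp, the count open in R172H and not in null was 1 under the first 2 of these, and the count open in R245W and not in R172H was 0 with 2000 bp. R245W was lowest in 38 of 44 windows of 2 Mb and 10 of 10 windows of 10 Mb. Leaving out a library gave -0.38 to -0.35 for scaled column 9 against R172H, and -0.68 to -0.65 for scaled pile-up against null. The causes were not tested. The alternatives for the pile-up, the windows with 20 or more regions and the genes and regions without the protocadherin cluster were chosen after seeing the data.

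Replicate numbers did not pair the libraries: correlations of same-numbered deviations over 36473 regions were -0.012 to 0.017. With the replicate block the differences had to be the same, since every line has the same 3 replicate numbers. That in column 9 between R172H and null, -0.32, had an exact sign-flip permutation p = 0.25, the smallest that 3 pairs allow. Read depth was not used here, so a region without a call cannot be read as closed DNA.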
